A study of Homo sapiens with 6 samples.

Results

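CAV1, CAV2, EHD2, PACSIN2, FLOT1 and FLOT2 encode proteins that shape caveolae and other cholesterol-rich rafts of the plasma membrane. The 6 genes were chosen by symbol, as a family of related function, among the 17039 genes of the expression table, and all 6 passed the filter on low values that left 13465 genes to test. Their mRNA was measured by RNA sequencing in 3 libraries of 231-BR cells and 3 libraries of MDA-MB-231 cells. MDA-MB-231 is a human breast cancer cell line with mesenchymal traits, and 231-BR is its brain-seeking variant. Both lines grew in DMEM with fetal bovine serum and penicillin-streptomycin, and only the 231-BR medium also held G418, so that the drug and the line cannot be told apart. The labels name no other treatment, and 231-BR stands here as a single derived line in culture, without brain tissue around it. Per the methods, the 231-BR cells were a gift from another laboratory and the MDA-MB-231 cells were bought from ATCC. The origin of the stock and the line thus cannot be told apart either. The comparison asked which genes differ between the brain-seeking cells and this stock of their parental line.

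Caveolae are small flask-shaped pits of the plasma membrane. CAV1 oligomers insert into the inner leaflet and build the pit together with CAV2 and a coat of cavins, while EHD2, an ATPase, forms a ring at the neck and PACSIN2, an F-BAR domain protein, bends the neck membrane. Flotillins belong to another family, the SPFH proteins, and FLOT1 and FLOT2 assemble with each other into flat raft domains that take part in endocytosis and in the clustering of receptors.

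Levels are given as FPKM, fragments scaled by the authors to the length of the transcript and to the mapped reads of the library, so that levels of different genes can be set side by side per unit of length. The FPKM of a library summed to 465020 to 472007 in 231-BR and to 486937 to 496420 in MDA-MB-231 cells, while the read depth is unknown. For genes with a mean of at least 1 FPKM, the lowest correlation (r, log2 values, across genes) was 0.997 within a line, and the highest was 0.902 between the lines. The mesenchymal filament gene VIM stood at 2273 to 2566 FPKM and the epithelial cadherin gene CDH1 at no more than 0.03 FPKM in all 6 libraries. The epithelial marker EPCAM, in contrast, was at 8.34 to 9.31 FPKM in 231-BR and at 4.44 to 5.49 FPKM in MDA-MB-231 cells. Of the receptors whose low level defines this class of breast cancer, PGR reached at most 0.07 FPKM. ESR1 was at 0.84 to 1.08 FPKM in 231-BR and at 0.74 to 0.83 FPKM in MDA-MB-231 cells. ERBB2 was at 9.61 to 10.2 FPKM in 231-BR and at 4.75 to 5.08 FPKM in MDA-MB-231 cells. Endothelial cells, adipocytes and muscle cells are rich in caveolae, and the markers of these cells, of leukocytes and of brain cells were read as well. Of these, 14 stayed at or below 0.48 FPKM in 231-BR and 0.26 FPKM in MDA-MB-231 cells. The sum of the 3 endothelial markers was 0.41 to 0.50 FPKM in 231-BR cells against 0.20 to 0.22 FPKM in MDA-MB-231 cells, mostly PECAM1, while CDH5 and VWF were at or below 0.03 FPKM in every library. The sum of the 3 adipocyte markers was 0.20 to 0.27 against 0.04 to 0.14 FPKM, that of the 2 muscle markers 0.02 to 0.04 against 0 FPKM, and that of the 4 brain markers 0.17 to 0.32 against 0.18 to 0.28 FPKM. The leukocyte markers PTPRC and CD3E summed to 0.02 to 0.04 against 0 FPKM. CD68, a lysosomal protein gene also listed among the leukocyte markers, had 80.6 to 84.2 FPKM in 231-BR and 61.9 to 64.7 FPKM in MDA-MB-231 cells. The submitters call the samples of a line independent and the methods call them parallel replicates, but neither says that they were separate cultures. The limma p-values thus rest only on the spread between these libraries, in part pooled over all genes, and this spread may be technical.

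CAV1, the structural protein without which caveolae do not form in most tissues, was the most abundant of the 6 mRNAs in both lines and the one that differed most. It was measured at 340.66, 343.48 and 341.83 FPKM in 231-BR cells and at 159.93, 161.21 and 160.11 FPKM in MDA-MB-231 cells. Every 231-BR library thus lay far above every MDA-MB-231 library, and within a line the libraries were almost equal. The mean was 342 ± 1.42 FPKM (SD, n = 3) in 231-BR and 160.4 ± 0.693 FPKM (SD, n = 3) in MDA-MB-231 cells, a 2.13-fold increase with a log2 fold change of 1.09 (SE 0.019, 95% interval 1.05 to 1.13) and an adjusted p of 3.7e-11 by limma. By mean level, CAV1 moved from place 461 among all genes in MDA-MB-231 cells to place 172 in 231-BR cells. The criteria used here for differentially expressed genes (DEGs) ask for a mean of at least 1 FPKM in both lines. They also ask for a log2 fold change beyond 1 in either direction and an adjusted p under 0.05 by limma. CAV1 was just inside. The study asked for FPKM values of at least 1 without naming the lines and tested with DESeq2, so its DEGs can differ from those here. In bulk RNA, a difference in the share of cells that express a gene and a difference in RNA per cell cannot be told apart. CAV1 was also among the hub genes that the study picked from these libraries, so its direction here is not independent evidence.

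CAV2 joins CAV1 in hetero-oligomers and depends on it to leave the Golgi. Its mRNA was at 27.27, 26.58 and 27.25 FPKM in 231-BR and at 21.63, 20.44 and 20.07 FPKM in MDA-MB-231 cells. The groups did not overlap, but the step between them was small next to that of CAV1. The means were 27.0 ± 0.393 and 20.7 ± 0.815 FPKM (SD, n = 3 each), which is 1.30-fold higher in 231-BR cells, with a log2 fold change of 0.38 (SE 0.035) and an adjusted p of 3.7e-06. In the GENCODE release 29 annotation, an exon of CAV2 overlaps an exon of AC002066.1 on the opposite strand. Whether reads were assigned by strand is not stated in the sources used here, so reads of the pair cannot be told apart.

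The ratio of CAV1 to CAV2 within a library, which does not move when a library is multiplied by a single factor, was 12.5, 12.9 and 12.5 in 231-BR and 7.39, 7.89 and 7.98 in MDA-MB-231 cells. All 3 libraries of 231-BR cells therefore held more CAV1 per CAV2 than any library of MDA-MB-231 cells. The log2 difference of the ratio was 0.71, with an exact 2-sided permutation p of 0.1, the smallest that 3 libraries against 3 can give. No adjustment was made over the 2 ratios tested.

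**Figure D1:**
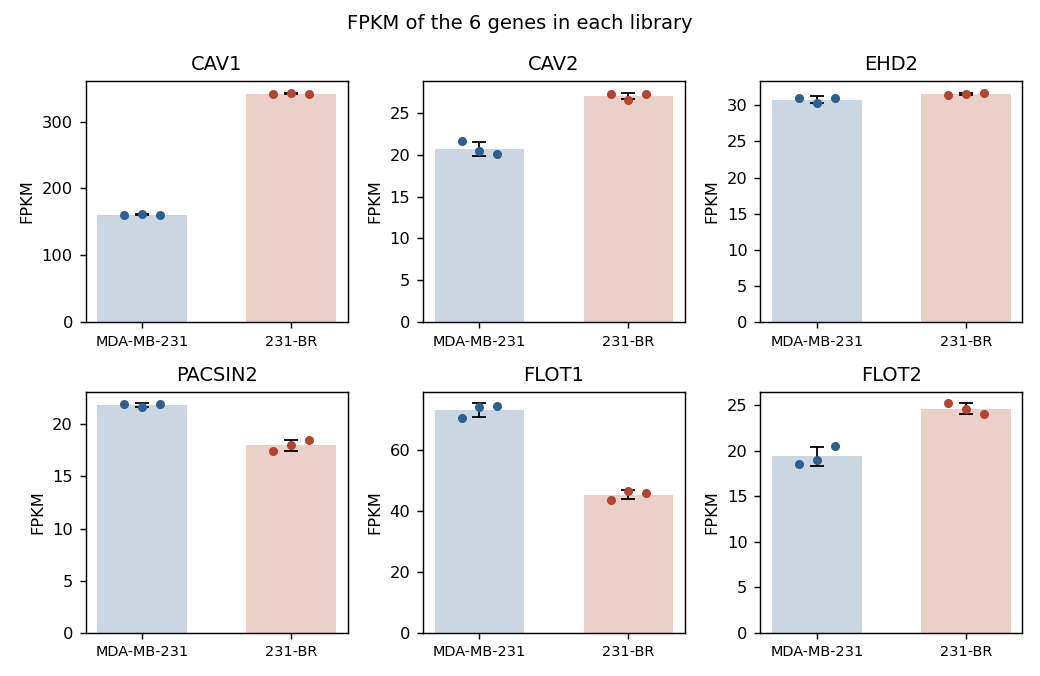
FPKM of the 6 genes in each library (points), with the mean (bars) and SD (error bars, n = 3) per cell line and a separate linear axis from 0 for each gene. CAV1 rises from 160.4 to 342 FPKM and FLOT1 falls from 73.1 to 45.4 FPKM, while the bars of EHD2 are nearly level at 30.8 and 31.6 FPKM.

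EHD2, which holds caveolae at the cell surface, differed little between the lines. The values were 31.38, 31.54 and 31.77 FPKM in 231-BR and 31.07, 30.27 and 31.06 FPKM in MDA-MB-231 cells. The groups were separated by a narrow margin, with the lowest 231-BR library just above the highest MDA-MB-231 library. The means of 31.6 ± 0.196 and 30.8 ± 0.459 FPKM (SD, n = 3 each) gave a log2 fold change of 0.04 (SE 0.027, 95% interval -0.02 to 0.10) and an adjusted p of 0.25, which did not pass the threshold. The sign turned to -0.05 after median-of-ratios scaling of the libraries. CAV1 per EHD2 was 10.8 ± 0.068 in 231-BR and 5.21 ± 0.101 in MDA-MB-231 cells, a ratio that was computed after the values had been seen and has no test.

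PACSIN2, the PACSIN paralog of most tissues, moved opposite to the caveolins. It was at 17.42, 18 and 18.51 FPKM in 231-BR and at 21.97, 21.63 and 21.93 FPKM in MDA-MB-231 cells. Every 231-BR library was lower than every MDA-MB-231 library. The mean fell from 21.84 ± 0.186 to 17.98 ± 0.545 FPKM (SD, n = 3 each), with a log2 fold change of -0.28 (SE 0.033) and an adjusted p of 2.6e-05. An exon of PACSIN2 overlaps an exon of its neighbour ARFGAP3 on the same strand in GENCODE release 29, and ARFGAP3 was lower in 231-BR cells as well, with a log2 fold change of -0.46. How the authors assigned reads in the shared stretch is not stated in the sources used here, and its part in the PACSIN2 value was not tested.

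The 2 flotillins, although partners in the same complex, went in opposite directions. FLOT1 was at 43.72, 46.48 and 45.94 FPKM in 231-BR and at 70.44, 74.23 and 74.58 FPKM in MDA-MB-231 cells. The lines were far apart, and replicate 1 was the lowest library of each line. The mean fell from 73.1 ± 2.30 to 45.4 ± 1.46 FPKM (SD, n = 3 each), which is 1.61-fold lower in 231-BR cells, with a log2 fold change of -0.69 (SE 0.033, 95% interval -0.76 to -0.61) and an adjusted p of 2.9e-08.

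FLOT2 was at 25.25, 24.6 and 24.1 FPKM in 231-BR and at 18.59, 19.04 and 20.56 FPKM in MDA-MB-231 cells. Here the 231-BR libraries were the higher ones, without overlap. The mean rose from 19.4 ± 1.03 to 24.7 ± 0.577 FPKM (SD, n = 3 each), which is 1.27-fold, with a log2 fold change of 0.35 (SE 0.042) and an adjusted p of 2.9e-05. FLOT1 per FLOT2 was 1.73, 1.89 and 1.91 in 231-BR cells and 3.79, 3.90 and 3.63 in MDA-MB-231 cells. The mean ratio thus went from 3.77 ± 0.136 to 1.84 ± 0.096, a log2 difference of -1.03 with an exact 2-sided permutation p of 0.1, again the smallest possible.

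**Figure D2:**
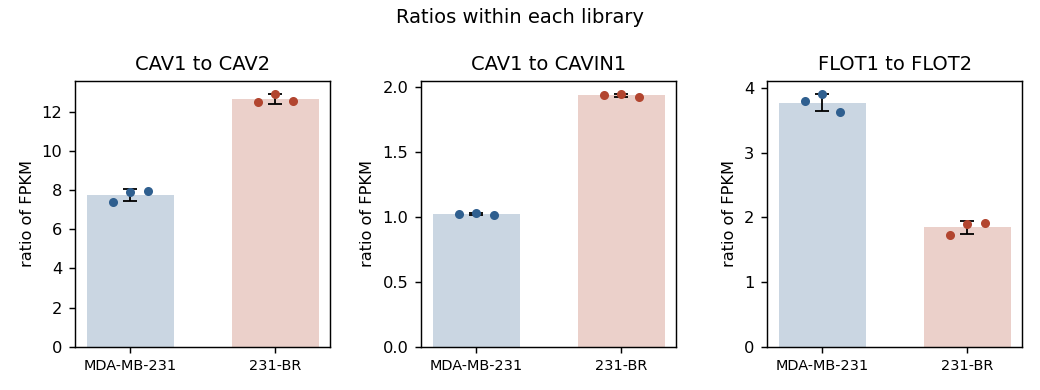
Ratios of FPKM within each library (points), with the mean (bars) and SD (error bars, n = 3) per cell line on linear axes from 0. CAV1 per CAV2 goes from 7.75 to 12.7 and CAV1 per CAVIN1 from 1.02 to 1.93, whereas FLOT1 per FLOT2 goes down from 3.77 to 1.84.

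FLOT1 and PACSIN2 were the 2 genes of the 6 that fell, and sequence upstream of their annotated starts is shown for both, from RefSeq on GRCh38.p14. FLOT1 lies on the minus strand of chromosome 6 and its stretch of 195 bases is chr6:30742734-30742928, with 46 bases between it and the annotated start that overlap an annotated exon and are not shown. PACSIN2 lies on the minus strand of chromosome 22 and has 6 windows before annotated starts, of which only the outermost is shown. This stretch of 250 bases, chr22:43015150-43015399, ends directly before its start. Capitals mark the GC box GGGCGG, the site of SP-family factors, where it occurs on either strand (CCGCCC on the other), with overlapping matches counted.
FLOT1: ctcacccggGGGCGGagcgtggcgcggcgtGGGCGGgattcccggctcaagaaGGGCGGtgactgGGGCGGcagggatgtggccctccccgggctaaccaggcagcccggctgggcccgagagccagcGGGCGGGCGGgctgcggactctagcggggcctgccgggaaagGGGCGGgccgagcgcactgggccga
PACSIN2: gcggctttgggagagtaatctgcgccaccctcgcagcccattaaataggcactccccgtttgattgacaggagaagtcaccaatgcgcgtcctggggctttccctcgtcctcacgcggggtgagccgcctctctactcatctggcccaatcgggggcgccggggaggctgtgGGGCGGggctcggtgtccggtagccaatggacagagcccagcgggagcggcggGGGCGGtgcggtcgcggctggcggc
The FLOT1 stretch held 7 GC boxes. The PACSIN2 stretch held 2 GC boxes and also, left in lower case, 3 copies of CCAAT, a common promoter element read as ATTGG on the opposite strand, of which the FLOT1 stretch had no copy. The members have 14 windows of 250 bases before an annotated start, and 9 of these (64.3%) held a GC box, against 42.6% of the 35116 such windows of all genes. Only 1 of the 6 windows of PACSIN2 had it, the printed one, while all windows of the other members did. The CCAAT element was found in the same 1 of the 6 windows of PACSIN2 and in no window of the other members. That is 7.14% of the 14 windows against 32.0% of all windows. The element TATAAA, searched as TTTATA on the opposite strand, was in no window of the 6 genes and in 10.7% of all windows. These matches describe the letters and are not evidence of binding.

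Of the 6 genes, 3 rose (CAV1, CAV2 and FLOT2), 2 fell (PACSIN2 and FLOT1) and EHD2 did not pass the test. The background for these counts is wide, since 44.4% of all genes tested passed the adjusted p of 0.05 as higher in 231-BR cells and 32.9% as lower. The DEG criteria were met by CAV1 among the 6 genes and by 4.68% of all genes tested in the direction of higher expression, and by no member and 1.77% of all genes in the other direction. The ranges of both lines were separate for 6 of 6 members, against 78.4% of all genes tested. The median log2 fold change was 0.19 over the 6 genes and 0.08 over all genes tested. The median of the 6 genes was 0.11 after median-of-ratios scaling and 0.14 after quantile normalization. Median-of-ratios scaling moved the median of all genes to -0.0018, a shift of -0.08, and quantile normalization moved it to -0.06, a shift of -0.14. The share of called genes that were higher in 231-BR cells was 57.4% with the values as deposited, 50.4% after median-of-ratios scaling and 45.6% after quantile normalization. The 5 members that were called kept their direction and their call under both.

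**Figure D3:**
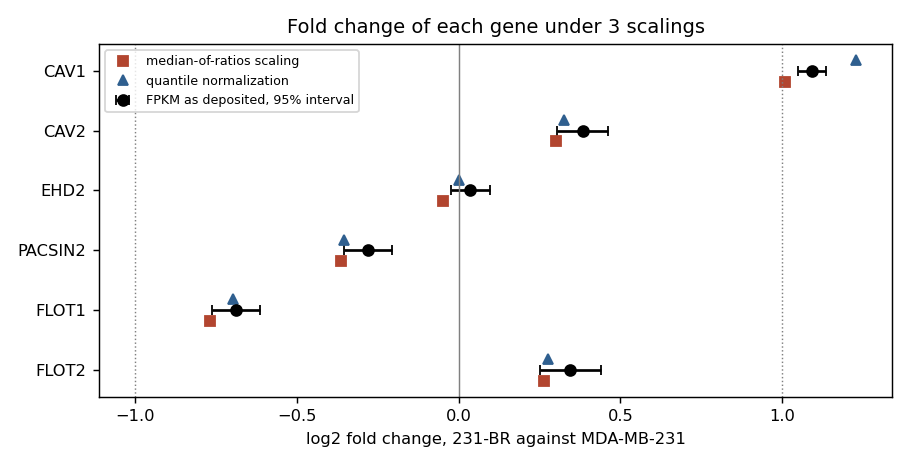
Log2 fold change of each gene in 231-BR against MDA-MB-231 cells, with the FPKM values as deposited (circles, 95% interval), after median-of-ratios scaling (squares) and after quantile normalization (triangles). Dotted lines mark a log2 fold change of 1 in either direction. CAV1 stays beyond the line, between 1.01 and 1.23, and EHD2 lies at 0 or beside it under all 3.

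The order of the levels differed between the lines. In 231-BR cells it ran from CAV1 through FLOT1, EHD2, CAV2 and FLOT2 to PACSIN2, and no neighbours in this order overlapped in their libraries. In MDA-MB-231 cells CAV1, FLOT1 and EHD2 again led without overlap, and PACSIN2, CAV2 and FLOT2 followed. There, the lowest PACSIN2 library and the highest CAV2 library were both at 21.63 FPKM, and the range of CAV2, 20.07 to 21.63 FPKM, overlapped that of FLOT2, 18.59 to 20.56 FPKM. PACSIN2 was thus the highest of these 3 by mean in the parental line, where it met the range of CAV2 and lay above that of FLOT2, and the lowest of the 6 in 231-BR cells.

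The cavins, which coat the caveolar bulb and stabilise it, did not move as a block. CAVIN1, the cavin that all caveolae need, was at 176.27, 176.5 and 177.94 FPKM in 231-BR and at 156.31, 157.08 and 158.36 FPKM in MDA-MB-231 cells. This was a rise of 1.12-fold (log2 fold change 0.17, adjusted p 2.3e-05). It was 0.09 after median-of-ratios scaling and 0.27 after quantile normalization, on the log2 scale, and was called under both. The parental line had about as much CAV1 as CAVIN1, with a ratio of 1.02 ± 0.008, and 231-BR cells had 1.93 ± 0.013, a value that was computed after the data had been seen and has no test. CAVIN2, a membrane-curving cavin, was at 10.62, 10.74 and 10.11 FPKM in 231-BR and at 1.69, 1.51 and 1.51 FPKM in MDA-MB-231 cells. Its log2 fold change of 2.67 (SE 0.065, adjusted p 2.5e-10) was the largest increase of the coat genes, and it was the only coat gene beside CAV1 to meet the DEG criteria. CAVIN2 per CAV1 was 0.031 ± 0.00095 in 231-BR and 0.0098 ± 0.00068 in MDA-MB-231 cells, values that were also computed after the data had been seen. CAVIN3, which binds the coat and PKC delta, fell from 40.5 ± 1.43 to 35.8 ± 1.82 FPKM (log2 fold change -0.18, adjusted p 0.0026). CAVIN4, the cavin of muscle, was at 0.973 ± 0.051 and 0.943 ± 0.090 FPKM with overlapping libraries (adjusted p 0.73), and CAV3, the caveolin of muscle, was listed at 0 FPKM in all but 1 library of 231-BR cells, where it was at 0.03 FPKM.

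The paralogs of EHD2 and PACSIN2 were read for the same comparison. EHD1, an ATPase of recycling endosomes, had the largest decrease of the genes listed with the coat. It fell from 101.0 ± 1.83 FPKM in MDA-MB-231 to 72.8 ± 0.850 FPKM in 231-BR cells (log2 fold change -0.47, adjusted p 4.2e-08). EHD4, another endosomal member, fell from 34.7 ± 1.07 to 28.6 ± 0.425 FPKM (log2 fold change -0.28, adjusted p 1.6e-05). EHD2 thus did not pass the test while EHD1 and EHD4 fell, and the differences between the paralogs were not tested. EHD3 was low throughout, at 0.52, 0.31 and 0.27 FPKM in 231-BR and 0.18, 0.16 and 0.22 FPKM in MDA-MB-231 cells, with a log2 fold change of 0.67 and an adjusted p of 0.016. That call rested on 231-BR replicate 1, without which the log2 fold change was 0.45 with an adjusted p of 0.059, and it was also lost after quantile normalization (log2 fold change 0.32, adjusted p 0.19). PACSIN3, the paralog of muscle and some other tissues, was at 12.8 ± 0.649 and 12.6 ± 0.583 FPKM with overlapping libraries (adjusted p 0.65), and the neuronal PACSIN1 did not exceed 0.02 FPKM.

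The 12 other genes listed with the coat include relatives and partners that are no coat proteins, such as EHD1, EHD4, DNM2 and FLNA. Of the 12 genes, 10 were tested. There, 4 rose (CAVIN1, CAVIN2, EHD3 and DNM2), 4 fell (CAVIN3, EHD1, EHD4 and FLNA) and 2 did not pass the test. That is 40.0% in either direction, near the 44.4% higher and 32.9% lower of all genes tested. Their median log2 fold change was 0.03, and it changed sign to -0.04 after median-of-ratios scaling and to -0.14 after quantile normalization. DNM2 and FLNA are named here after their values were seen. DNM2, the dynamin that cuts caveolae and clathrin-coated pits from the membrane, rose from 39.2 ± 0.887 to 66.0 ± 1.70 FPKM (log2 fold change 0.75, adjusted p 7.1e-09). FLNA, a filamin that ties CAV1 to actin, fell from 286.3 ± 4.67 to 208.2 ± 4.81 FPKM (log2 fold change -0.46, adjusted p 5.8e-08).

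**Figure D4:**
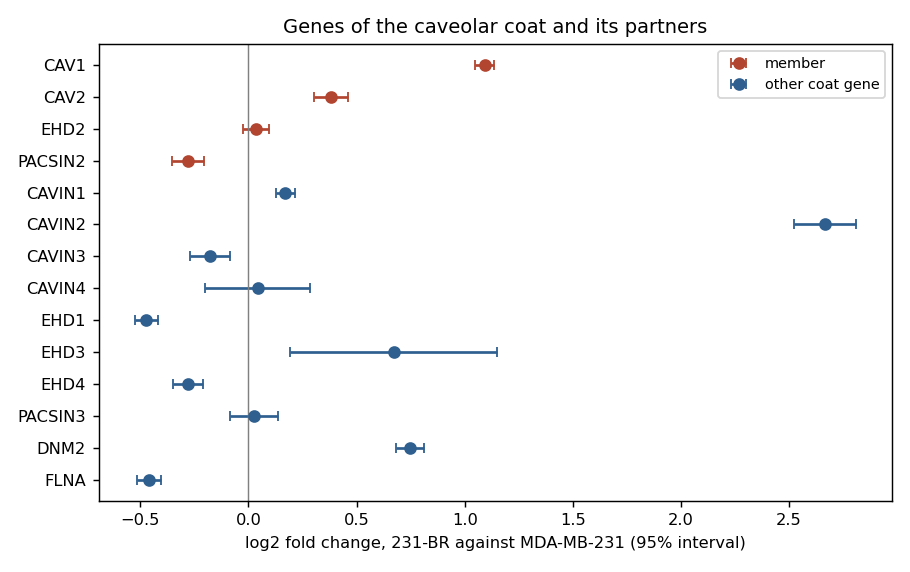
Log2 fold change with its 95% interval for the 4 caveolar members (red) and the 10 other coat genes that were tested (blue), 231-BR against MDA-MB-231 cells. CAVIN2 at 2.67 and CAV1 at 1.09 lie farthest to the right, EHD1 at -0.47 and FLNA at -0.46 farthest to the left, and the low-level genes CAVIN4 and EHD3 have the widest intervals.

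The SPFH relatives of the flotillins also changed in both directions. Of 9 listed genes 7 were in the table and tested, of which 2 rose, 4 fell and ERLIN2 did not pass the test (adjusted p 0.77), with a median log2 fold change of -0.23. The shares were 28.6% higher and 57.1% lower, against 44.4% and 32.9% of all genes tested. STOM, a raft protein of the plasma membrane first known from red cells, was at 13.07, 13.3 and 12.83 FPKM in 231-BR and at 3.94, 3.54 and 3.47 FPKM in MDA-MB-231 cells. Its log2 fold change was 1.81 (SE 0.056, adjusted p 1.4e-09), and it was the SPFH gene that met the DEG criteria. STOML2, a mitochondrial relative, had the largest decrease, from 100.7 ± 2.81 to 59.7 ± 1.65 FPKM (log2 fold change -0.75, adjusted p 7.8e-09). Of the mitochondrial prohibitins, named after their values were seen, PHB2 fell from 194.4 ± 2.21 to 130.1 ± 0.793 FPKM (log2 fold change -0.58) while PHB rose from 128.3 ± 3.11 to 139.1 ± 2.52 FPKM (log2 fold change 0.12, adjusted p 0.0019). The PHB call was lost after median-of-ratios scaling (log2 fold change 0.03, adjusted p 0.27), which left 1 SPFH gene higher and 4 lower.

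Proteins that reside in rafts, many of them held there by a GPI anchor, changed in both directions. Of 17 listed genes, 16 were in the table and 13 were tested, of which 6 rose, 6 fell and CD9 did not pass the test (adjusted p 0.059), with a median log2 fold change of -0.06. After median-of-ratios scaling 6 rose and 7 fell, with a median of -0.14. The deposited values thus gave 46.2% in either direction, against 44.4% higher and 32.9% lower over all genes tested. Of the 13 genes, 2 met the DEG criteria as higher (CD55 and PAG1) and 2 as lower (NT5E and PRNP). Over all genes tested these shares were 4.68% and 1.77%. BST2, also called tetherin, had the largest increase, from 0.04, 0.08 and 0.04 FPKM in MDA-MB-231 to 12.02, 13.92 and 10.9 FPKM in 231-BR cells. Its log2 fold change was 6.34 (adjusted p 9.4e-11) and ran from 3.65 to 7.65 with the pseudocount, because the parental values were near 0. For the same reason BST2 missed the DEG criteria, which ask for the FPKM minimum in both lines. NT5E, the ecto-5'-nucleotidase CD73, had the largest decrease, from 294.7 ± 4.37 to 113.9 ± 1.31 FPKM (log2 fold change -1.37, adjusted p 1.9e-11). Other GPI-anchored proteins are named after their values were seen. The complement regulators CD55 and CD59 rose, with log2 fold changes of 1.93 and 0.99, and PRNP, the prion protein, fell by 1.18 on the log2 scale. PAG1, a listed raft protein also named after its values were seen, rose by a log2 fold change of 1.78.

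Clathrin-coated pits are the other main route into the cell, and their genes were read as a point of comparison for the caveolar coat. All 16 listed genes were tested, of which 8 rose, 5 fell and 3 did not pass the test. None met the DEG criteria, which 4.68% of all genes tested met as higher and 1.77% as lower. The shares of 50.0% higher and 31.2% lower were near those of all genes tested. The median log2 fold change was 0.07 and turned to -0.01 under both other scalings. FCHO1, a nucleator of the pits, had the largest increase, from 0.103 ± 0.012 to 4.84 ± 0.283 FPKM (log2 fold change 4.60, adjusted p 1.8e-10), and ran from 2.40 to 5.42 with the pseudocount. It missed the DEG criteria only because its parental mean was under the FPKM minimum asked of both lines. CLTB, a light chain of clathrin, had the largest decrease, from 122.3 ± 3.78 to 73.1 ± 3.30 FPKM (log2 fold change -0.74, adjusted p 3.2e-08). The heavy chain CLTC, named after its values were seen, was at 103.9 ± 2.82 and 99.7 ± 2.65 FPKM with overlapping libraries and an adjusted p of 0.082. That p was 0.038 without 231-BR replicate 3, 0.028 without MDA-MB-231 replicate 1 and 0.023 after quantile normalization (log2 fold change 0.09). AP2B1, an adaptor subunit also named after its values were seen, rose by a log2 fold change of 0.68.

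Rafts and caveolae are rich in sphingolipids, and the genes that make them were counted as well. Of 19 listed genes 17 were tested, of which 8 rose, 4 fell and 5 did not pass the test, with a median log2 fold change of 0.14. The shares were 47.1% higher and 23.5% lower, against 44.4% and 32.9% of all genes tested. After median-of-ratios scaling 7 rose and 5 fell (median 0.07), and after quantile normalization 7 rose and 6 fell (median 0.03). SPTLC3, a subunit of serine palmitoyltransferase, the first enzyme of the pathway, had the largest increase, from 0.757 ± 0.087 to 9.35 ± 0.153 FPKM (log2 fold change 3.47, adjusted p 2.6e-10). Its paralog SPTLC2, named after its values were seen, was the gene of this list that met the DEG criteria. It rose from 3.75 ± 0.278 to 20.4 ± 0.741 FPKM (log2 fold change 2.42). SPTLC3 missed the criteria only because its parental mean was under the FPKM minimum. The same held for CERS4 and ST3GAL5, named after their values were seen, with log2 fold changes of 3.25 and 1.16. CERS2, the ceramide synthase for very long acyl chains, had the largest decrease, from 169.3 ± 3.36 to 105.6 ± 2.26 FPKM (log2 fold change -0.68, adjusted p 5.1e-09).

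The genes whose centred log2 values lay closest to those of CAV1 over the 6 libraries, by Euclidean distance among 11123 other genes, were WIZ at 0.042, DYNLT3 at 0.051 and LAPTM5 at 0.052. WIZ, a zinc finger gene, went from 13.3 to 28.3 FPKM, and LAPTM5, a lysosomal membrane protein gene, from 21.0 to 45.1 FPKM. The closest to FLOT1 were UBL4A at 0.043, ENSA at 0.046 and the tetraspanin gene CD151 at 0.046. CD151 fell from 98.0 ± 4.76 to 60.3 ± 2.21 FPKM. The points share the same 6 libraries and fall into 2 lines, so these distances mostly restate the size of the difference between the lines.

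CAV2 and CAV1 lie next to each other on chromosome 7, followed by MET, and the other 4 genes lie on chromosomes 19, 22, 6 and 17. Each gene was set against the 20 nearest genes with a mean of at least 1 FPKM, 10 on either side. Of all genes at that level, 45.3% were called higher and 35.4% lower in 231-BR cells, with a median log2 fold change of 0.06. Around CAV1, 11 of the 20 neighbours rose and 5 fell, with a median log2 fold change of 0.16. By fold change CAV1 had rank 3 from the top of the 21 genes, and its direct neighbours CAV2 and MET were at 0.38 and 0.22. Around CAV2, 10 rose and 5 fell (median 0.04), and TES on its other side was at -0.18.

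Of the 20 neighbours of FLOT1 on chromosome 6, 15 fell and 2 rose, against 35.4% lower and 45.3% higher among all genes of that level, with a median log2 fold change of -0.36, and the direct neighbours TUBB and IER3 were at -0.53 and -1.73. FLOT1 itself, at -0.69, had rank 5 from the bottom of the 21 genes. Around PACSIN2, 10 of 20 neighbours fell and 5 rose (median -0.13), and the direct neighbours ARFGAP3 and MCAT were at -0.46 and 0.08. Around EHD2, 10 fell and 6 rose (median -0.20), with BICRA at -0.21 and NOP53 at -0.41. Around FLOT2, 12 rose and 5 fell (median 0.16), with ERAL1 at -0.15 and DHRS13 at 0.37. Neighbours share a chromosome stretch and are not independent of each other, and no test was made on them.

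**Figure D5:**
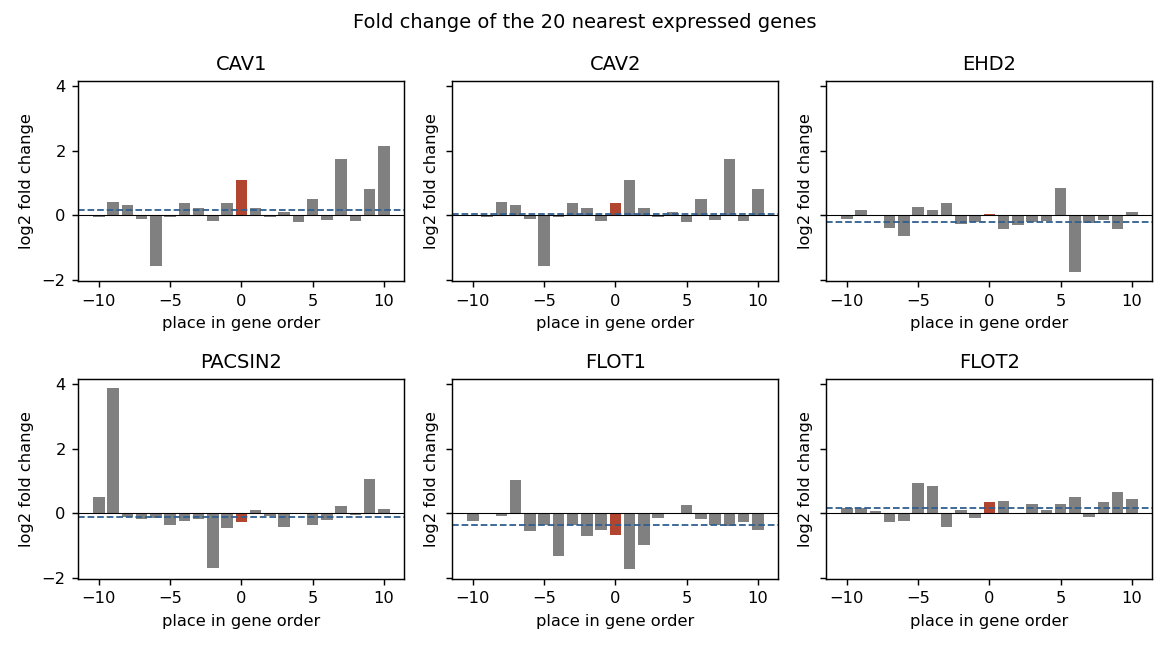
Log2 fold change, 231-BR against MDA-MB-231 cells, of each of the 6 genes (red) and of the 20 nearest expressed genes (grey) in their order along the chromosome, with the median of the neighbours as a dashed line. The neighbours of FLOT1 are mostly below 0, with a median of -0.36, whereas CAV1 at 1.09 stands above both of its direct neighbours.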

How the data were processed

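Poly(A) RNA of 231-BR and MDA-MB-231 cells, 3 libraries each, was sequenced in paired ends on a BGISEQ-500. Per the methods and the submitters' processing notes, the authors filtered the reads with SOAPnuke, aligned them to GRCh38.p12 with HISAT2 2.0.4 and to a gene set with Bowtie2 2.2.5, and deposited FPKM values with 2 decimals. The program behind the FPKM, its annotation release and the use of strand are not given in the sources used here. Values of the 6 files of single samples equalled those of the table. Libraries were grouped by their titles, because the cell line entry of the labels counts upward within each line.

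Count models were not applied, since the values are FPKM and not counts. Among 1238 low genes, with nonzero values up to 0.3 FPKM throughout, 166 had the same value to 2 decimals in 231-BR replicates 1 and 2, and the worth of 1 read was not derived from such values. The lines were compared by limma 3.58.1 in R 4.3.3 (lmFit, eBayes with trend) on log2(FPKM + 0.1), over the 13465 genes whose mean was at least 0.1 FPKM, and p-values were adjusted over all of these by the Benjamini-Hochberg method. Fold changes are on this scale, which understates those of low genes. The fit was tested on simulated data, where it called 70 of 100 genes changed by a log2 size of 0.3. At a size of 1.2 it called 100 of 100, and of 13265 unchanged genes it called 5. Far fewer genes were changed in that simulation than were called in the real libraries. The changed genes were drawn only from genes of higher mean level, so recovery among low genes was not tested. Ratios were compared by exact 2-sided permutation tests. Summaries and figures used Python 3.11.15, pandas 2.3.3, scipy 1.17.1 and matplotlib 3.10.9.

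Members and lists were chosen with earlier results of these data known. Named were the members, their cavin, EHD and PACSIN relatives, the largest called increase and decrease of each list, the 3 genes most like CAV1 and FLOT1, and direct neighbours. Gene order (16798 identifiers matched) and upstream sequence came from RefSeq on GRCh38.p14, of which no gene coordinates are printed, and exon overlaps from GENCODE release 29. FLOT1 and PACSIN2 upstream bases were kept only where no annotated exon lay, and the windows of the other members are not printed. Alternatives were pseudocounts of 1 and 0.01, no filter, a filter at 1 FPKM, quantile normalization, scaling by the median of ratios, a constant prior variance in eBayes, a replicate term, each library left out, and other DEG criteria.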

Additional observations from a re-analysis of the deposited data

How the results depend on the processing

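CAV1, CAV2, PACSIN2, FLOT1 and FLOT2 kept their direction and their call in all 14 alternatives of the fit, and 5 members were called in each. The log2 fold change ran from 1.01 to 1.23 for CAV1, from 0.30 to 0.41 for CAV2, from -0.36 to -0.26 for PACSIN2, from -0.77 to -0.66 for FLOT1 and from 0.26 to 0.39 for FLOT2. With 1 library left out, that of CAV1 was 1.09 to 1.10. The adjusted p by limma depended on the prior variance. With a constant one it was 1.1e-06 for CAV1 and 2.8e-05 for FLOT1. The number of members past the DEG criteria was 0 instead of 1 at an absolute log2 fold change over 1.5, because CAV1 lies below that bound. After median-of-ratios scaling the sign turned for EHD2 (-0.047), CAVIN4 (-0.032), PACSIN3 (-0.057) and CLTC (-0.023), and after quantile normalization for CAVIN4 (-0.40, adjusted p 0.0063) and PACSIN3 (-0.058), and the cause was not tested. With 1 library left out, CAVIN4 ran from -0.022 to 0.103 and PACSIN3 from -0.0054 to 0.066. The median-of-ratios scaling gave 519 DEGs higher and 305 lower over all genes, and quantile normalization 439 and 384, against 630 and 238 with the values as deposited. Of 362 alternative values for 26 named genes that are no members, 347 kept direction and call.

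With the replicate block, a term for the number in the titles, the log2 fold change of CAV1 was 1.09 with an adjusted p of 5.3e-10 and 5 members were called. Deviations of same-numbered libraries correlated at 0.09, -0.04 and -0.11 across genes, and those of differently numbered libraries at -0.15 to 0.18. These values show no pairing by number, but they cannot tell whether libraries of the same number were prepared together. Among the genes named, the replicate block changed the call of CLTC (adjusted p 0.025), as did quantile normalization (0.088, adjusted p 0.023). The exact tests of the ratios cannot go below 0.1, or 0.2 with a library left out, and their log2 differences stayed at 0.67 to 0.73 for CAV1 to CAV2 and at -1.06 to -0.99 for FLOT1 to FLOT2. The depth is unknown, so that the error of values near 0, as for EHD3 and BST2, cannot be given.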

Other observations

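The genes around FLOT1 on chromosome 6 were looked at one by one after their values had been seen. IER3, an immediate early stress gene next to FLOT1, fell from 416.5 ± 11.6 to 125.6 ± 4.39 FPKM (SD, n = 3 each, adjusted p 3.8e-11 by limma). PPP1R18, an actin-binding phosphatase subunit gene, fell from 107.5 ± 1.80 to 42.5 ± 1.03 FPKM (adjusted p 7.2e-11). TUBB, a beta-tubulin gene, fell from 1496 ± 9.59 to 1040 ± 13.1 FPKM (adjusted p 6.7e-09). ATAT1, which acetylates alpha-tubulin, went the other way, from 2.85 ± 0.241 to 5.86 ± 0.294 FPKM (adjusted p 5.9e-07). Around CAV1 on chromosome 7, TMEM168 fell from 5.93 ± 0.343 to 1.95 ± 0.1002 FPKM (adjusted p 1.9e-08) and CPED1 rose from 2.07 ± 0.303 to 7.13 ± 0.606 FPKM (adjusted p 1.5e-07), so that the genes near CAV1 differed in both directions.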
